A study of Caenorhabditis elegans with 12 samples.

Results

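Adult ageing was followed in Caenorhabditis elegans that lack the microRNA mir-71, by small RNA sequencing of whole mutant animals at day 0 and day 5 of adulthood. All 213 mature microRNA strands of the deposited table were taken as members, out of 213 in the series, and the 6 mutant libraries out of 12 carry the comparison. The mutants are strain MT12993, genotype mir-71(n4115), with 3 libraries at day 0 and 3 at day 5, and wild-type N2 animals with 3 libraries at each age serve for comparison. Animals of all 4 groups were cultured at 20 °C and kept from about the L4/adult molt on plates with 0.1 mg/mL 5-fluorodeoxyuridine, a blocker of DNA synthesis that stops germ cells and embryos from dividing. Day 5 animals of both strains have therefore been exposed for longer than day 0 animals, so age and length of exposure cannot be told apart. The mutants are a single strain carrying 1 allele, and the number of worms behind a library is not given in the sources used here. In whole animals, fewer cells of a type and less RNA per cell cannot be told apart either.

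A microRNA is cut from a hairpin precursor into a duplex of 2 strands, named 5p and 3p after their arm of the hairpin. As a rule one strand, the guide, stays bound to an Argonaute protein and represses matching messenger RNAs, while the other is degraded. In worms mir-71 is known from lifespan work as a microRNA whose loss shortens life, with a role in the nervous system and in insulin and heat stress signalling. Several others, among them mir-34, mir-238, mir-239a, mir-239b and mir-246, have been studied in ageing or stress resistance.

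The libraries held between 917170 reads (replicate 2 of the mutants at day 0) and 4070663 reads (replicate 1 of the mutants at day 5) over the measured strands, as recovered from the authors' normalised values. Levels below are normalised reads, the authors' values after their own library scaling. Scaling left the mutant libraries unequal: replicate 1 was the highest of the day 5 libraries for 93.4% of the 212 strands with reads and of the day 0 libraries for 78.3%, and replicate 2 was the lowest for 75.5% at each age. The total was 3024618, 1276414 and 1984431 normalised reads in day 0 replicates 1, 2 and 3, and 5021422, 1870399 and 2493951 at day 5. These totals overlapped between the ages, with means of 2095155 ± 879346 and 3128591 ± 1668626 (SD, n = 3), a ratio of 1.49 and p = 0.5 in a two-sided exact permutation test, in which 0.1 is the smallest p possible. The ratio was 1.04 without replicate 1 of day 5.

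The targeted gene was read first. miR-71-5p, its guide, stood at 52.5, 139 and 109 normalised reads in the mutants at day 0 and at 104, 189 and 166 at day 5. In N2 it stood between 90221 and 173431 in the 6 libraries, and miR-71-3p, between 153 and 419 in N2, was at 0 reads in each mutant library. Every library thus had the level its label calls for, and the small residue of miR-71-5p in the mutants did not pass the age test (log2 change 0.67 ± 0.43, SE; limma adjusted p = 0.282).

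With age, 21 strands rose and 8 fell in the mutants (limma on log2(normalised reads + 1), Benjamini-Hochberg adjusted p under 0.05 over 213 strands). Abundant strands, the guides of mir-238, mir-72, mir-77 and mir-63, were among those that rose, together with the ageing and stress microRNA miR-34-5p, the germline and embryo microRNAs miR-38-3p and miR-42-3p, and 9 strands with a day 5 mean under 100 normalised reads. All 8 falls were of strands with under 1000 normalised reads at day 0, among them both strands of mir-230 and the scarce strands of the mir-36 and mir-51 precursors. The 29 calls are 13.6% of all strands, the rises 9.86% and the falls 3.76%. A further 36 strands had an unadjusted p under 0.05 without passing, which brings that count to 65. In 57 strands (26.8%) the 3 day 0 and the 3 day 5 values did not overlap, 39 of them higher and 18 lower at day 5, and each of the 29 called strands was among them.

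Mutant libraries of the same replicate number deviated together from their group means for replicates 1 and 2 (r = 0.362 and 0.386). For replicate 3 r was 0.113, within the range of −0.507 to 0.246 for differently numbered libraries. With the number as a block limma called 67 strands (31.5%), 45 higher and 22 lower. Each of the 29 strands was called with the block too. In this balanced design the block changes the errors and leaves the log2 changes as they were, so their direction was not tested by it. The median log2 change of all strands was 0.28, and rescaling to equal totals, by the trimmed mean of M-values or to equal library medians moved it by −0.52, −0.32 and −0.10. With equal totals 24 strands were called higher and 47 lower, by the trimmed mean 24 rose and 32 fell, and for library medians 47 were up and 28 down, while the 29 strands kept their call and direction under all 3. The number of falls thus ranged from 8 to 47 with the scaling.

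**Figure D1:**
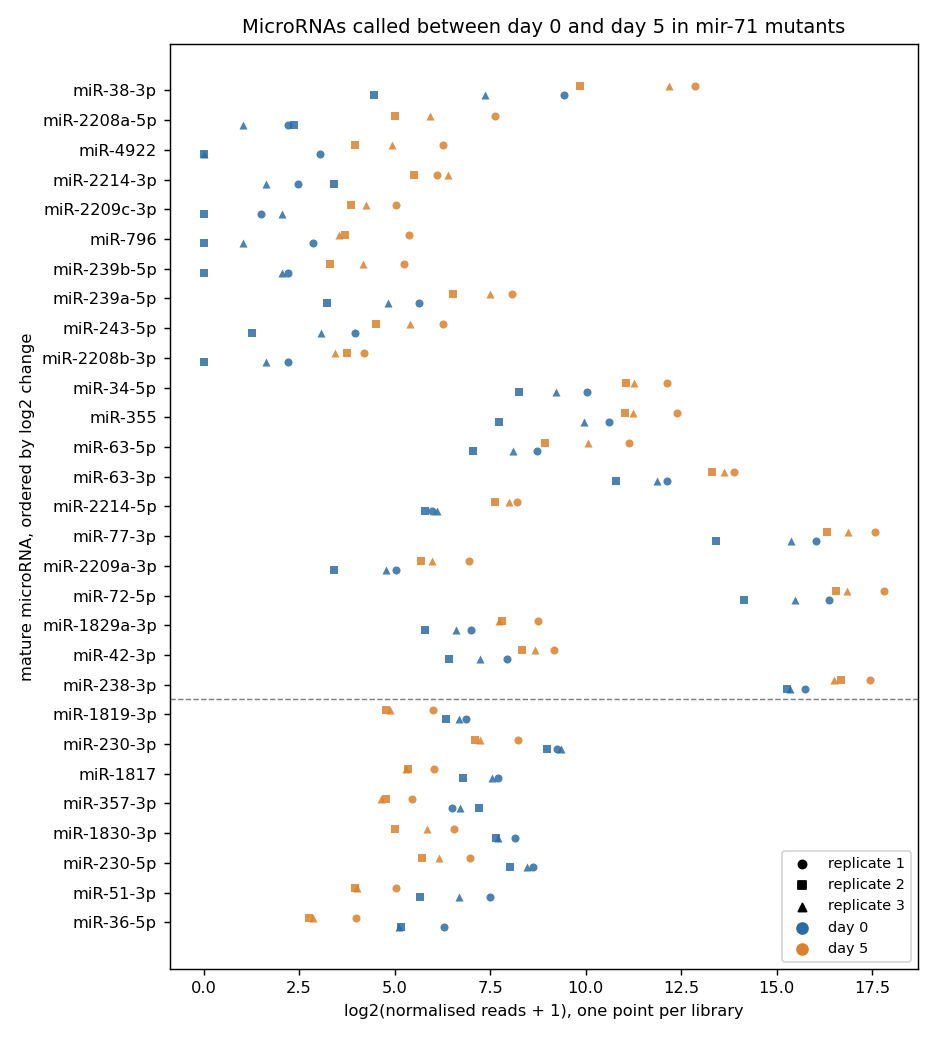
Levels of the 29 called strands in each mutant library, as log2(normalised reads + 1) on the x axis, with strands ordered by their log2 change. Day 0 libraries are blue, day 5 libraries orange, marker shape gives the replicate number, and the dashed line parts the 21 rises from the 8 falls; within every strand the colours do not overlap.

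Of the 8 measured lifespan microRNAs, 3 rose (miR-238-3p, miR-34-5p and miR-239b-5p) and 0 fell, beside 9.86% and 3.76% of all strands, with a median log2 change of 1.05 beside 0.28. This list, like the others, was chosen with earlier results of these data known and takes each gene by its more abundant strand. The strands beside it include 61 less abundant partner strands. miR-34-5p, a conserved microRNA of DNA damage and stress responses, had 1046, 305 and 593 normalised reads at day 0 and 4479, 2134 and 2434 at day 5. Every day 5 library stood above every day 0 library, and the log2 change was 2.31 ± 0.50 (SE, limma adjusted p = 0.0096). Its partner strand miR-34-3p had a log2 change of 0.76 ± 0.44, not called (limma adjusted p = 0.253).

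miR-238-3p, whose gene is needed for normal lifespan, had 54741, 39393 and 41709 normalised reads at day 0 and 175958, 104315 and 92728 at day 5. The groups stood well apart, and the rise was 1.41 ± 0.41 on the log2 scale (SE; limma adjusted p = 0.0318), or 1.13 above the median of all strands. mir-238 lies on chromosome III (WBcel235, 8867328 to 8867425, minus strand) between protein-coding genes. Its neighbours on that strand within 10 kb, mir-80 and mir-90, gave 0 calls, with log2 changes of 0.68 ± 0.51 for miR-80-3p and 0.25 ± 0.39 for miR-90-3p.

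mir-239a and mir-239b, whose joint loss is known to lengthen life, are close neighbours on chromosome X (11792445 to 11792542 on the plus strand and 11791302 to 11791399 on the minus strand). miR-239a-5p had 48.8, 8.35 and 27.4 normalised reads at day 0 and 269, 91.9 and 179 at day 5. This rise of 2.80 ± 0.72 (log2, SE; limma adjusted p = 0.017) set the 5p strand above the 3p strand in 3 of 3 day 5 libraries, as described with the strand ratios. miR-239b-5p, very scarce with 7 reads in all at day 0 and 66 at day 5, rose by 2.82 ± 0.81 (SE, limma adjusted p = 0.0318).

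Other members of the lifespan list did not pass. miR-246-3p, which came nearest, had 29602, 8744 and 18638 normalised reads at day 0 and 97084, 24772 and 48726 at day 5. Day 5 replicate 2 lay below day 0 replicate 1, so the groups overlapped (log2 change 1.53 ± 0.54, SE; limma adjusted p = 0.0783), though within each replicate number day 5 was the higher, and with the block the list counted 4 rises. miR-239a-3p, the more abundant strand of its gene over all libraries, was the lowest of the list at −0.10 ± 0.50. The list's count was 1 without replicate 2 or replicate 3 of day 0, and 1 without replicate 1 or replicate 3 of day 5.

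Among the abundant strands, miR-72-5p, which shares its seed with the miR-31 family of other animals, had 84596, 18171 and 45667 normalised reads at day 0 and 230387, 95615 and 116886 at day 5. miR-77-3p had 66957, 10790 and 42478 at day 0 and 194449, 80861 and 119215 at day 5. miR-63-3p had 4449, 1776 and 3743 at day 0 and 15119, 10130 and 12474 at day 5. In all of them replicate 2 of day 0 was the lowest library, and the closest approach of the groups was for miR-72-5p and miR-77-3p, between replicate 1 of day 0 and replicate 2 of day 5. The log2 changes were 1.73 ± 0.52, 1.98 ± 0.61 and 2.00 ± 0.42 (SE; limma adjusted p = 0.037, 0.0404 and 0.0096). As shares of a library's reads, which do not depend on the authors' scaling, miR-72-5p went from 1.42% to 2.80% over the day 0 libraries to 4.59% to 5.11% over the day 5 libraries, and miR-77-3p from 0.845% to 2.21% to 3.87% to 4.78%.

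Both strands of mir-63 rose together, miR-63-5p from 419, 131 and 274 normalised reads to 2229, 486 and 1061 (log2 change 2.08 ± 0.57, SE; limma adjusted p = 0.0264). mir-63 lies on chromosome X (17598765 to 17598868, minus strand), apart from the other genes of its list, mir-64, mir-65, mir-66 and mir-229, which gave 0 calls. miR-355 had 1558, 210.1 and 991 normalised reads at day 0 and 5350, 2099 and 2407 at day 5, which gave a rise of 2.12 ± 0.63 (log2, SE; limma adjusted p = 0.0346). Its lowest day 5 library stood above its highest day 0 library. miR-1829a-3p, from an intron of gas-1, a mitochondrial complex I subunit gene read from the same strand, had 126, 54.3 and 96.9 normalised reads at day 0 and 431, 221 and 209 at day 5 (1.63 ± 0.49, limma adjusted p = 0.0398).

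Scarce strands gave the largest fold rises after miR-38-3p, and their size depends on the 1 read added before taking logs. miR-2208a-5p had 3.62, 4.18 and 1.05 normalised reads at day 0 and 197, 31.2 and 59.9 at day 5, on 8 reads against 287 in all. It rose by 4.32 ± 0.77 (log2, SE; limma adjusted p = 0.00426), and its groups were separated in every library. mir-2208a, mir-2208b, mir-2209a and mir-2209c lie together on chromosome IV (1021772 to 1027281, plus strand), and 4 of the 5 measured strands of this stretch rose. The others called were miR-2208b-3p (2.51 ± 0.71), miR-2209a-3p (1.79 ± 0.56) and miR-2209c-3p (3.20 ± 0.76), the last 2 with a seed related to bantam of flies, and miR-2208b-5p, at 1.20 ± 0.53, did not pass (limma adjusted p = 0.14). At day 0 miR-2208b-3p and miR-2209c-3p had 6 and 5 reads in all, and each was at 0 in replicate 2.

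Both strands of mir-2214, a hairpin in an intron of B0361.11 on chromosome III (7278715 to 7278778, plus strand), rose. miR-2214-5p had 62.4, 54.3 and 67.4 normalised reads at day 0 and 295, 197 and 254 at day 5. Replicates of this strand lay close together at both ages, and the log2 change of 1.99 ± 0.37 (SE, limma adjusted p = 0.00488) had the smallest error of the called strands. miR-2214-3p had 4.52, 9.74 and 2.11 at day 0 and 67.8, 44.1 and 83.2 at day 5 (3.49 ± 0.60, limma adjusted p = 0.00426). The remaining scarce rises were miR-4922 (4.04 ± 0.89, on 8 reads at day 0 and 123 at day 5), miR-796 (2.91 ± 0.89, on 8 and 68) and miR-243-5p (2.63 ± 0.73, on 24 and 149). miR-243-5p is the partner of miR-243-3p, known to be loaded into the Argonaute RDE-1, and miR-243-3p had a log2 change of 0.64 ± 0.41, not called.

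The mir-35 family, made in the germline and the early embryo and needed for embryonic development, is used here as the marker of those tissues in whole worms. Of its 8 members, each taken by its more abundant strand, 2 rose and 0 fell, beside 9.86% and 3.76% of all strands. Their median log2 change was 1.49, beside 0.28 for all strands. miR-38-3p had 690.1, 20.9 and 163 normalised reads at day 0 and 7480, 914 and 4628 at day 5. Day 5 replicate 2 was only just above day 0 replicate 1, and the log2 change of 4.55 had an SE of 1.10, the largest error of any strand (limma adjusted p = 0.0125). miR-42-3p, from a separate locus on chromosome II, had 242, 84.9 and 149.6 at day 0 and 579, 318 and 406 at day 5 (1.53 ± 0.44, limma adjusted p = 0.0318).

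The abundant members overlapped between the ages, replicate 1 of day 0 being high. miR-39-3p had 59170, 5021 and 25515 normalised reads at day 0 and 138866, 41240 and 73178 at day 5, and miR-35-3p had 50832, 5820 and 30137 and then 112136, 33735 and 47809. Neither was called, at log2 changes of 1.93 ± 0.76 (limma adjusted p = 0.113) and 1.45 ± 0.71 (0.174), yet in each replicate number day 5 was above day 0. With the replicate block 7 of the 8 members were called higher, as with library medians, against 3 with equal totals and 2 by the trimmed mean. Over all 213 strands the rises numbered 45, 47, 24 and 24 in these settings. The exception was mir-41, entered by miR-41-5p at −0.73 ± 0.43, which was called lower under both of the latter. Its scarce 3p strand, with 32 reads in all at day 0 and 66 at day 5, went the other way. The log2 change of miR-41-3p lay 1.41 above the median of all strands and was not called. The count of rises was 7 without replicate 1 of day 0, 1 without replicate 2 or 3 of day 0, and 0 without replicate 1 or 3 of day 5. The 3p strands of this family resemble each other in sequence, and how reads fitting several of them were counted is not given in the sources used here.

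Summed over its 14 measured strands, the family made up 5.16%, 1.13% and 3.97% of the reads at day 0 and 6.90%, 5.79% and 6.70% at day 5. Each day 5 share was above each day 0 share, and the day 0 shares had the wider spread (SD 2.07 against 0.591 percentage points). In N2 the mean share went from 2.74% to 10.7%, beside 3.42% to 6.46% in the mutants. These shares were not tested. Markers of other tissues were not called in the fit without the block. The muscle microRNA miR-1-3p had a log2 change of −0.36 ± 0.65, the intestinal miR-60-3p −0.14 ± 0.52 and the glial miR-228-5p 0.51 ± 0.50, which became −0.03 with equal totals. Of the 5 nervous-system microRNAs 0 were called, with changes from −0.08 for miR-790-5p to 1.37 for miR-124-3p. The day 0 and day 5 values of miR-124-3p and miR-791-3p did not overlap, and miR-124-3p was called higher with the block and with library medians. Whether a change in the amount of germline or embryos takes part in the other rises was not tested.

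**Figure D2:**
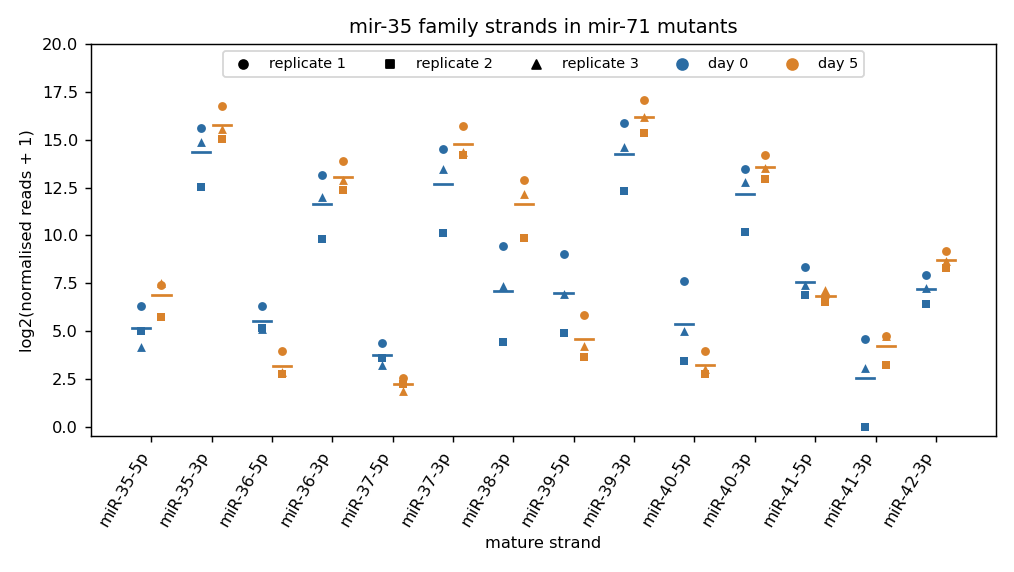
Levels of the 14 measured mir-35 family strands in the mutant libraries, as log2(normalised reads + 1), with points for libraries (shape by replicate number) and bars for group means. The 3p strands stand higher at day 5 within each replicate number, while the 5p strands of mir-36, mir-37, mir-39 and mir-40 stand lower.

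Within the mir-35 to mir-41 cluster on chromosome II (11537608 to 11538404, plus strand), the strands of mir-36 had log2 changes of opposite sign, of which only the fall was called. miR-36-5p fell from 77.8, 34.8 and 33.7 normalised reads to 14.8, 5.71 and 6.26, or −2.33 ± 0.52 on the log2 scale (SE; limma adjusted p = 0.0096). Its partner miR-36-3p had 9251, 892 and 4038 at day 0 and 15032, 5366 and 7696 at day 5, a change of 1.41 ± 0.74 that was not called. Since both strands were read from the same library, their plain quotient is free of the library's scaling. The tested ratio has 1 added to each strand, so for scarce strands it still depends on the scaling to some extent.

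The log2 ratio of 5p to 3p was tested for the 61 precursors with both strands measured, mir-71 apart. It changed in 7 (11.5%; limma, adjusted p under 0.05), 5 toward the 3p strand and 2 toward the 5p strand, and 21 had an unadjusted p under 0.05. The changes were large: −4.33 ± 0.49 for mir-39 (adjusted p = 3.71e-05), −3.74 ± 0.63 for mir-36 (0.00148), −3.58 ± 0.89 for mir-37 (0.0125), −3.49 ± 0.67 for mir-40 (0.00336), −1.55 ± 0.39 for mir-54 (0.0125), 2.78 ± 0.55 for mir-51 (0.00339) and 2.90 ± 0.66 for mir-239a (0.00888).

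For mir-39, miR-39-3p exceeded miR-39-5p 114-fold, 172-fold and 207-fold in the day 0 libraries and 2502-fold, 3609-fold and 4090-fold in the day 5 libraries. For mir-40 the excess was 58.3-fold, 120.4-fold and 232-fold at day 0 and 1252-fold, 1394-fold and 1643-fold at day 5. The lowest day 5 quotient was 12.1 times the highest at day 0 for mir-39 and 5.39 times for mir-40, although the levels of the strands themselves overlapped between ages. These quotients rest on few reads of the scarce strand. miR-40-5p had 218, 7 and 29 reads in the day 0 libraries and 12, 11 and 8 at day 5. miR-39-5p had 574, 21 and 117 and then 45, 22 and 20, and miR-36-5p had 30 in all at day 5. mir-37 went the same way on fewer reads still, with miR-37-5p at 38 reads in all at day 0 and 14 at day 5. The ratio of mir-35 itself was not called, and miR-35-5p had 78.7, 30.6 and 16.9 normalised reads at day 0 and 169, 53.0 and 179.8 at day 5, in the direction of miR-35-3p.

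In mir-51, of the family related to miR-100 of other animals, miR-51-5p exceeded miR-51-3p 179-fold, 599-fold and 245-fold at day 0 and 2081-fold, 2169-fold and 2149-fold at day 5. The scarce strand fell, miR-51-3p going from 178, 50.1 and 101 normalised reads to 32.1, 14.5 and 15.2 (−2.27 ± 0.54, limma adjusted p = 0.0119), while miR-51-5p had a change of 0.51 ± 0.42. mir-54 of the same family likewise shifted toward its abundant 3p strand, from an excess of 99.9-fold, 172-fold and 104-fold to 318-fold, 432-fold and 335-fold. Its call was lost without replicate 3 of day 0 or replicate 2 of day 5.

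mir-239a was the exception among the 7, shifting toward its less abundant strand. The quotient of miR-239a-5p to miR-239a-3p was 0.283, 0.1 and 0.299 at day 0 and 1.15, 1.5 and 2.38 at day 5. The strands thus changed order in every replicate number. Over all 61 precursors the ratio moved toward the more abundant strand in 41, with a median shift of 0.43 in that direction, and in N2 in 39 of 61. Among the 61 less abundant strands taken by themselves, 6 rose and 3 fell, with a median log2 change of −0.21 beside 0.28 for all strands, of which 9.86% rose and 3.76% fell. These counts moved to 6 and 21 with equal totals, 7 and 13 by the trimmed mean, 8 and 12 for library medians and 8 and 10 with the block. They were 1 and 7 without replicate 1 of day 5, 1 and 1 without replicate 3 of day 5, 1 and 6 without replicate 2 of day 0, and 2 and 3 without replicate 3 of day 0. With the replicate block 12 precursors were called for their ratio, and mir-37 lost its call without replicate 1 of day 5.

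**Figure D3:**
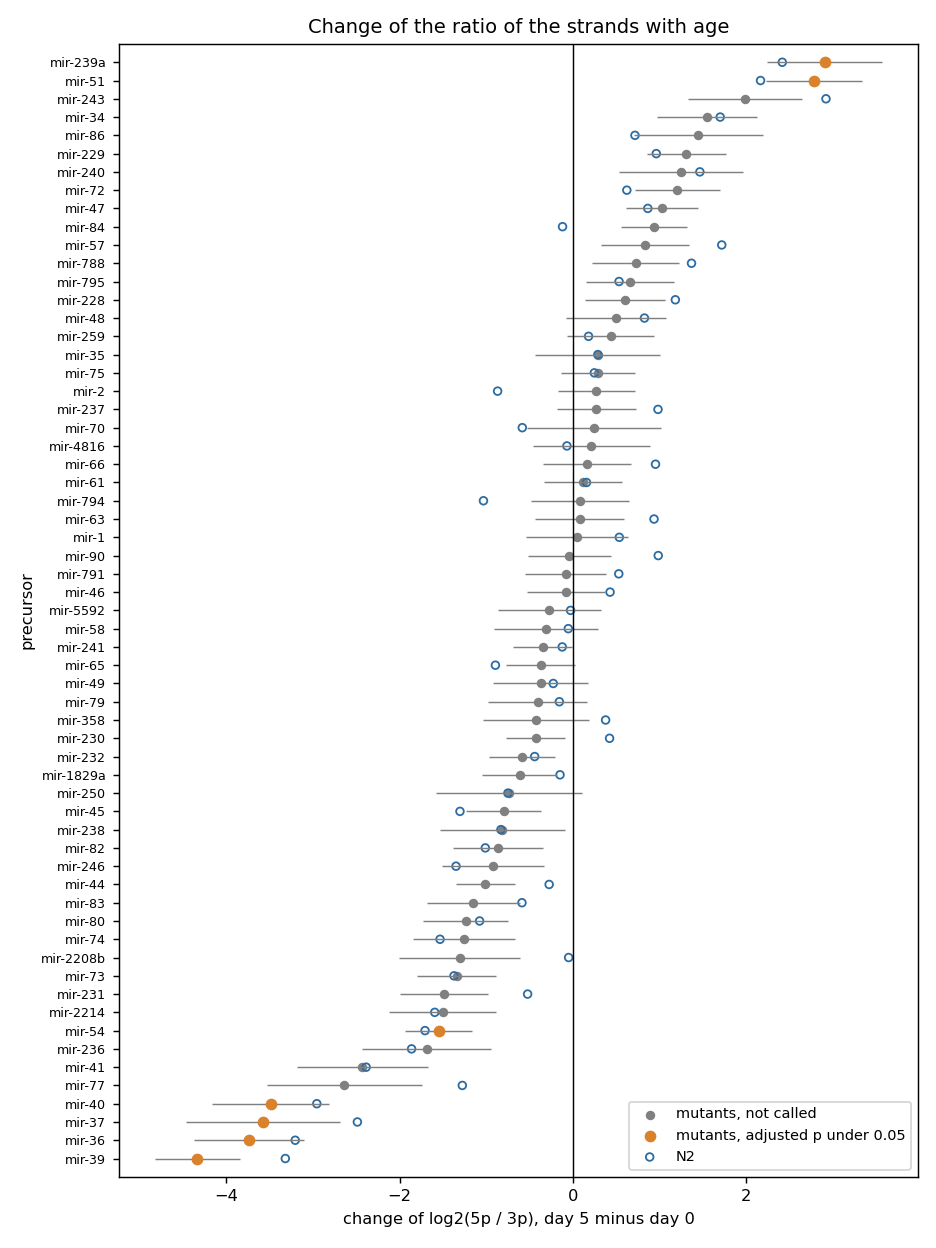
Change of log2(5p / 3p), with 1 added to each strand, between day 0 and day 5 for 61 precursors. Filled points are mir-71 mutants with their SE, orange where called, and open blue circles are N2. The 4 lowest precursors all belong to the mir-35 family, and the N2 circles of the 7 called precursors lie on the same side of zero.

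Falls outside the clusters named so far came from mir-230, mir-357, mir-1817, mir-1819 and mir-1830. miR-230-5p had 391, 260.2 and 353 normalised reads at day 0 and 123, 51.4 and 70.7 at day 5, and miR-230-3p had 602, 504 and 652 and then 299.8, 137 and 150.3. Both strands were well separated, with log2 changes of −2.09 ± 0.42 and −1.66 ± 0.42 (SE; limma adjusted p = 0.00821 and 0.0148), so that here the hairpin's strands fell together. mir-791, a neuronal microRNA within 10 kb of mir-230 on chromosome X, did not follow: miR-791-3p had 28.9, 39.0 and 32.7 at day 0 and 105, 51.9 and 53.7 at day 5 (0.98 ± 0.45, limma adjusted p = 0.155).

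miR-357-3p had 89.5, 146 and 104 normalised reads at day 0 and 43.2, 26.5 and 24.2 at day 5 (−1.84 ± 0.43, limma adjusted p = 0.0119), and its neighbour mir-358 on chromosome V had −1.35 ± 0.61 for the 5p and −0.93 ± 0.53 for the 3p strand, neither called. miR-1830-3p, from an intron of paic-1, a gene of purine synthesis, had 284, 202 and 209 at day 0 and 92.5, 31.2 and 56.4 at day 5 (−2.04 ± 0.49, limma adjusted p = 0.0119). miR-1817 and miR-1819-3p had log2 changes of −1.78 ± 0.42 and −1.41 ± 0.43 (limma adjusted p = 0.0119 and 0.04). In each of these strands the lowest day 0 library stood above the highest day 5 library.

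Grouping strands by position on the same chromosome strand, with gaps under 10 kb, gave 22 clusters that hold 91 strands. Calls fell in 8 of them, and 13 of their 91 strands were called, beside 29 of all 213 strands (13.6%). The mir-35 to mir-41 cluster was the single one with calls in both directions. By chromosome, 5 of 40 strands rose and 2 fell on II, 3 of 30 rose on III, 5 of 31 rose and 1 fell on IV, and 7 of 66 rose and 3 fell on X. On I and V 0 of 20 and 0 of 21 rose, and 1 fell on each, where 9.86% of all strands rose and 3.76% fell. Whether position bears on the calls was not tested.

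The families of developmental timing gave 0 calls under the authors' scaling without the block. In the let-7 family, which drives the passage from larva to adult, 0 of 7 members were called, from −1.22 ± 0.43 for let-7-5p to 1.09 ± 0.49 for miR-48-5p, and the median of 0.43 turned to −0.10 with equal totals. let-7-5p had 15818, 9258 and 10933 normalised reads at day 0 and 9479, 3608 and 3701 at day 5, so that 1 day 5 library overlapped with day 0, and with the replicate block let-7-5p was called lower and miR-48-5p higher. Under each of the 3 rescalings let-7-5p and miR-241-5p were called lower, and with library medians miR-48-5p was called higher. In the lin-4 family, lin-4-5p, which also acts in adult lifespan, had 0.09 ± 0.39 and miR-237-5p −1.26 ± 0.44 (limma adjusted p = 0.0765), the latter called lower with the block and under all 3 rescalings. Without replicate 1 of day 5 each of these families had 1 member called lower. As a share of reads the lin-4 family went from 0.832% to 1.19% at day 0 to 0.376% to 0.452% at day 5, without overlap.

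Among the other families, 2 of 7 mir-58 members rose (miR-2209a-3p and miR-2209c-3p), 1 of 5 mir-64 members (miR-63-3p) and 1 of 3 mir-72 members (miR-72-5p), and 0 fell, where 9.86% of all strands rose. In the mir-51, mir-2 and mir-44 families and the 3 mirtrons, a class whose hairpins are released by splicing, 0 members were called. By the annotation used here mir-62 and mir-1020 lie in introns, while mir-1018 lies between protein-coding genes. The block added miR-58-3p, miR-66-5p and the mirtron miR-1018 as rises, and library medians added these and miR-229-5p. The mirtron miR-1020-3p was called lower under all 3 rescalings, and miR-58b-5p and miR-247-3p with equal totals. The mir-58 list ran down to miR-58b-5p at −0.95 ± 0.59, mir-64 to miR-64-5p at 0.26 ± 0.38 and mir-72 to miR-73-3p at 0.04 ± 0.40. The mir-51 list ran from miR-52-5p at −0.45 ± 0.43 to miR-55-3p at 0.81 ± 0.41, the mir-2 list from miR-250-3p at −0.23 ± 0.61 to miR-43-3p at 0.35 ± 0.82, and the mir-44 list from miR-247-3p at −1.04 ± 0.67 to miR-44-3p at 0.02 ± 0.54, which has the same values as miR-45-3p in every library. Mirtrons ran from miR-1020-3p at −0.96 ± 0.49 to miR-1018 at 1.63 ± 0.70. The mir-58 count was 0 without replicate 1 or replicate 3 of day 5, and 1 without replicate 2 or 3 of day 0 or, in N2, replicate 2 of day 0 or any day 5 library. The mir-72 count was 0 without replicate 2 or 3 of day 0, replicate 1 or 3 of day 5 or, in N2, replicate 2 or 3 of day 0 or replicate 3 of day 5.

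The 5 strands most abundant over the 6 mutant libraries together held between 37.8% and 51.0% of the reads of each. miR-58-3p, a bantam relative and the most abundant of them, had 408122, 168319 and 263676 normalised reads at day 0 and 1084469, 294120 and 573978 at day 5, with a log2 change of 1.11 ± 0.54 that was not called (limma adjusted p = 0.174). Its share of the reads went from 13.2% to 13.5% over the day 0 libraries to 15.7% to 23.0% at day 5. miR-70-3p, the second of them, went the other way, from 11.7% to 13.1% to 2.92% to 5.56%, so that neither share overlapped between ages. In normalised reads miR-70-3p had 353729, 157365 and 259345 at day 0 and 279403, 54551 and 118441 at day 5, which overlap (log2 change −0.9998 ± 0.59, limma adjusted p = 0.253). miR-80-3p, miR-1-3p and miR-48-5p complete the 5, at 0.68 ± 0.51, −0.36 ± 0.65 and 1.09 ± 0.49, none called. These shares were not tested, and a larger share of one strand lowers those of the rest.

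N2 animals of the same ages, which share no libraries with the mutants, were used to ask which changes differ with mir-71. limma called 50 of 211 strands with age in N2 (23.7%), 16 higher and 34 lower. Of the 29 strands called in the mutants, 19 were called in N2 too (65.5% of the mutant calls and 38.0% of the N2 calls). The tests pool 1 variance per strand over both strains, and libraries with the same replicate number deviate together across strains, which bears on such an overlap to an extent that was not tested.

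The difference between the age changes was tested directly, and 0 of 211 strands were called (0.0%), with 25 at an unadjusted p under 0.05, all of them more positive in the mutants. The smallest adjusted p was 0.398. Differences had a median of 0.70 and a median SE of 0.75, and the median was 0.16 for equal totals, −0.16 for the trimmed mean and 0.07 for library medians, so that the general excess in the mutants moved with the scaling. For the called strands the differences ran from −0.65 to 2.21 for rises and from −0.70 to 1.04 for falls, and 1 of the 29, miR-1829a-3p, had an unadjusted p under 0.05.

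The strands with the smallest p for the difference were miR-245-3p, miR-2-5p, miR-4806-5p, miR-228-3p and miR-56-3p. miR-245-3p had 1061, 601 and 918 normalised reads in the mutants at day 0 and 2281, 1790 and 1262 at day 5, a log2 change of 1.04 ± 0.38 against −0.50 ± 0.38 in N2. The difference of 1.54 ± 0.54 did not pass (limma adjusted p = 0.398). miR-56-3p, of the mir-51 family, had 0.54 ± 0.37 against −0.79 ± 0.37, and miR-228-3p, from the glial mir-228 hairpin, −0.09 ± 0.44 against −1.73 ± 0.44. The other two had 60 reads or fewer in each mutant group.

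These differences were known only within wide limits. For miR-238-3p the change was 1.41 ± 0.41 in mutants and 0.46 ± 0.41 in N2, and the 95% interval of the difference ran from −0.28 to 2.18. For miR-34-5p the interval was −0.80 to 2.22, for miR-63-3p −0.07 to 2.48 and for miR-38-3p −3.32 to 3.31. The strand ratios gave 0 calls for a difference between strains and 0 with an unadjusted p under 0.05. All 7 ratios called in the mutants moved in the same direction in N2, 6 of them past the threshold there. In N2 8 of all 61 ratios were called. The ratio tests too pool 1 variance per precursor over both strains, which bears on this overlap to an extent that was not tested.

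**Figure D4:**
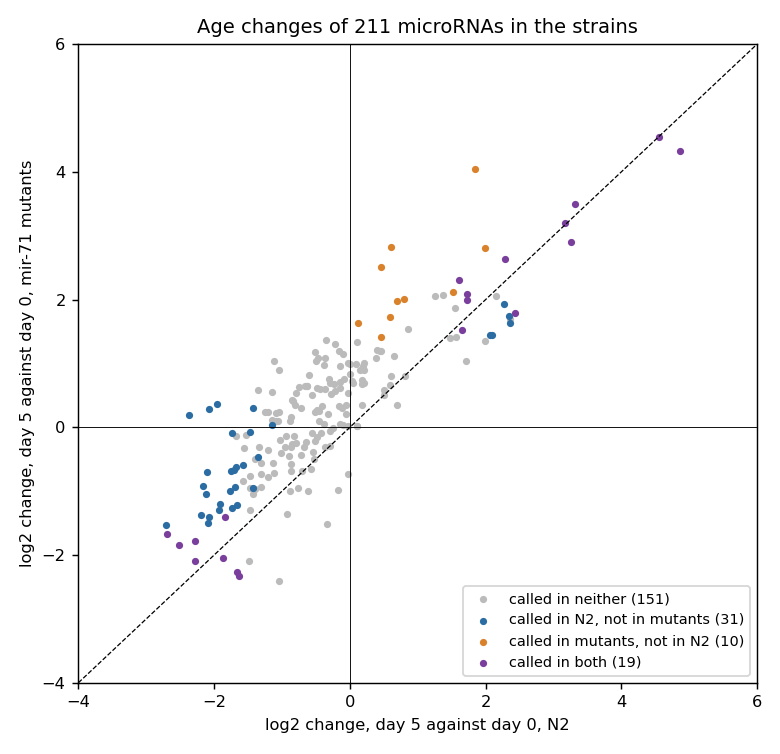
Log2 changes with age of 211 strands in N2 (x axis) and in mir-71 mutants (y axis), coloured by where they were called; the dashed line marks equal change. Most points lie above the dashed line, 177 of 211, by a median of 0.70 under the authors' scaling.

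Single libraries set the number of calls. Dropping replicate 1 of day 0 gave 44, dropping replicate 3 of day 0 gave 14 and dropping replicate 3 of day 5 gave 6. Without replicate 1 of day 5, the library with the highest values, 6 were higher and 16 lower, and without replicate 2 of day 0 it was 9 and 12. Both strands of mir-2214, miR-34-5p, miR-63-3p, miR-230-5p and miR-2208a-5p stayed called when any 1 of the 12 libraries was dropped, and the other 23 strands lost the call at least once. With the mutant groups fitted alone 3 strands passed, miR-2208a-5p, miR-2214-3p and miR-2209c-3p.

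**Figure D5:**
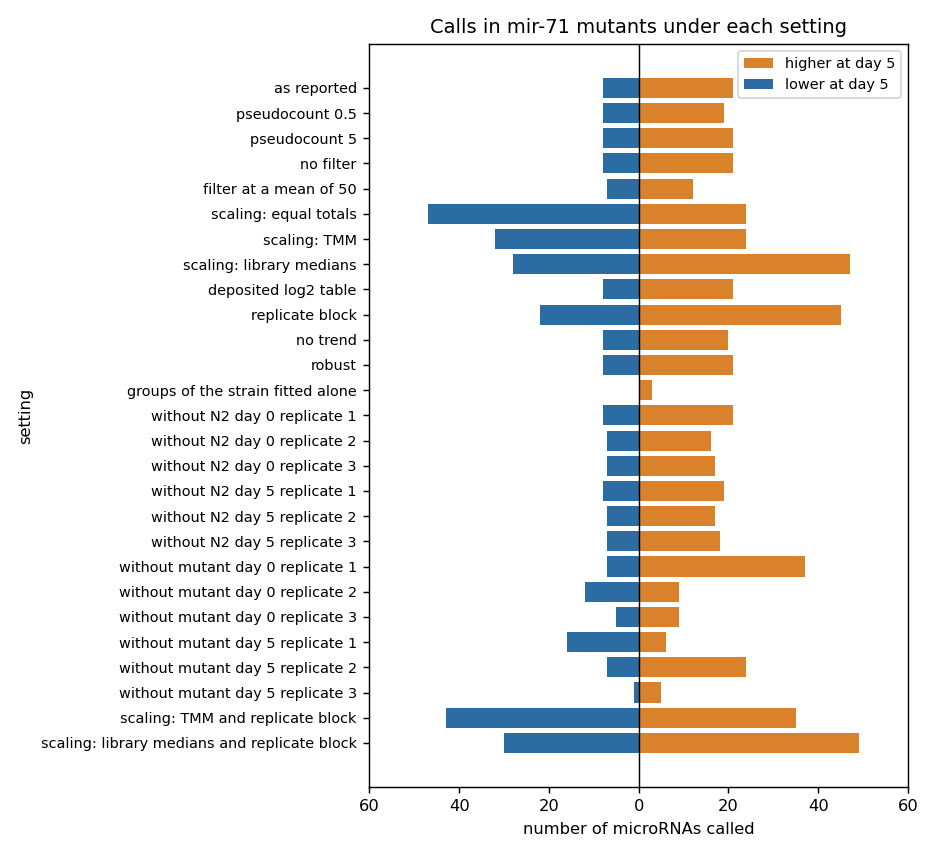
Number of strands called higher (orange, to the right) and lower (blue, to the left) at day 5 in mir-71 mutants, as reported and under each other setting. Rises run from 3 to 49 and falls from 0 to 47.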

How the data were processed

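Per the labels' protocols, RNA was extracted with TRIzol and libraries were made after size selection and sequenced on an Illumina instrument. Per the submitters' processing notes, STAR 2.4.0h, DESeq2 and the build WBcel235 were used, while trimming and counting rules were not given in the sources used here. Normalised read counts, a never-negative signal, were deposited by the authors for 213 strands. The authors also deposited a log2 table of unstated transformation, used as an alternative. All values (100%) lay within 0.001 of whole multiples of 1 step per library, taken as 1 read; too few low values exist for a formal check.

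Values were not rescaled. After adding 1 and taking log2, the 4 group means were fitted with limma (version 3.58.1 under R 4.3.3) and an intensity trend (8 residual degrees of freedom, two-sided tests). The filter at a mean of 5 removed 0 strands. Both mir-71 strands were left out of counts in N2 and of the difference. Strand ratios were fitted likewise without trend. Groups and replicate numbers come from the titles, where replicates are called biological.

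Members and gene lists were chosen with earlier results of these data known. A gene entered a list by its more abundant strand. The text names the called strands, the 5 most abundant, list extremes, the 5 smallest p for the difference and precursors with a called ratio. Positions are Ensembl precursor genes of WBcel235, to which 208 strands matched by name. Deviations of same-numbered mutant libraries correlated at 0.362, 0.386 and 0.113 between ages, and those of differently numbered ones at −0.507 to 0.246. Only the fits with the replicate block read the numbers as pairs, and the main fit has no block. The procedure was tested on simulated data, drawn independently for each strand and library. Those data lack the shifts shared by a library's strands or by same-numbered libraries, so that test does not bear on such shifts. Read totals limit precision by counting error only in part, since reads carry no molecular identifiers.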

Additional observations from a re-analysis of the deposited data

How the results depend on the processing

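Strands called in the mutants numbered 29. They were 19 with a filter at a mean of 50 (139 strands tested), 71 with equal totals, 56 with the trimmed mean of M-values, 75 with library medians, 67 with the replicate block, and 3 with the mutant groups fitted alone. Combinations chosen after seeing the data gave 78 (trimmed mean and replicate block) and 79 (library medians and replicate block). With 1 library left out the count ran from 6 to 44. In N2 the count of 50 became 26 with the filter at 50, 94 with equal totals, 86 with the replicate block, 79 with the strain fitted alone, 80 and 79 with the combinations, and 10 to 67 with 1 library left out, lowest without replicate 2 of N2 at day 0. The same-number correlations between ages in N2 were weak, at −0.020, 0.128 and 0.054. Across strains, same-numbered libraries correlated at 0.247 to 0.560 at day 0 and 0.335 to 0.466 at day 5. The difference between strains gave 0 calls under every setting run. Ratio calls went from 7 to 12 with the replicate block, 11 with a minimum mean of 20 for the scarcer strand, and 6 to 11 with 1 mutant library left out. The ratio of total signal was 1.70 with recovered reads and 1.04 to 1.92 with 1 library left out. The cause of these moves was not tested, beyond fewer strands under the filter and fewer libraries. Over 83 named strands and 7 ratios, 2332 values were recomputed: 124 lost a call, 90 gained one, 0 called values turned sign, and 97 changed sign while uncalled both times. Depth limits the strands with under 10 reads at day 0.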
